A study of Mus musculus and Homo sapiens with 59 samples.

Results

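NIH3T3 mouse fibroblasts that carry a pore-forming fragment of gasdermin D were compared with and without the ligand that releases it, in 4 of the 59 RNA libraries of the series. Both groups carried the construct mGSDMD1-276-HBD, that is residues up to 276 of mouse GSDMD joined to a domain labelled HBD, and both were grown in DMEM. The treated group received 4OHT (4-hydroxytamoxifen, a tamoxifen metabolite that binds the oestrogen receptor) at 50 nM for 2.5 h, and the other group was untreated (NT). Each group held 2 libraries of polyadenylated RNA, chosen by the line, construct and treatment in their labels. The labels name neither the promoter that drives the construct nor how many clones the line was made from, and they hold no 4OHT-treated NIH3T3 cells without the construct. The comparison asks which transcripts change when the plasma membrane is opened from within by a pore protein. Beside it stand 4 libraries of NIH3T3 cells with the MLKL construct hMLKL1-181-2Fv (AP20187, 100 nM, 1 h, or untreated), and 4 of parental NIH3T3 cells (digitonin, 55 µg/mL, 3 h, or untreated). The LLC line (mouse lung carcinoma) added 4 libraries with the same GSDMD construct and 4 without a construct, with and without 4OHT at the same dose and time.

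Gasdermin D is the pore-forming protein of pyroptosis, an inflammatory form of lytic cell death. Inflammatory caspases cut it, and its freed amino-terminal part assembles into pores in the plasma membrane, through which ions and small proteins pass before the cell bursts. Calcium that enters through such pores recruits the ESCRT machinery, which can shed damaged membrane. A fragment held inactive by a hormone-binding domain and released by a ligand opens the membrane without a microbial signal. Fibroblasts are not professional immune cells, but they answer injury with chemokines, growth factors and enzymes that remodel matrix.

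Gsdmd itself (ENSMUSG00000022575.5, chromosome 15 from 75862327 to 75867408 in GRCm38) marked the construct in every library. Its level was 1230 and 1135 TPM (transcripts scaled for their length and the library total) in the untreated libraries and 710 and 747 TPM in the 4OHT libraries. The other 31 NIH3T3 libraries of the series held 5.44 to 15.04 TPM. Transcripts assigned to Esr1, the oestrogen receptor gene whose hormone-binding domain is commonly used in ligand-controlled fusions, were at 126 and 145 TPM untreated and at 82.9 and 81.3 TPM after 4OHT, against 0 to 0.115 TPM in the other NIH3T3 libraries. Both fell after 4OHT, Gsdmd by 0.70 (SE 0.08, limma adjusted p 3.65e-08) and Esr1 by 0.71 (SE 0.08, limma adjusted p 5.50e-08) on the log2(TPM + 1) scale. Reads of the construct and of the resident gene cannot be told apart in these values. Esr1 did not pass the test with a pseudocount of 0.1 (limma adjusted p 0.108).

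The 4 libraries held fibroblast markers, hardly any epithelial markers and some macrophage markers. All 12 fibroblast markers were detected, with a summed level of 15108 to 15763 TPM untreated and 15344 to 15402 TPM after 4OHT. Of 9 epithelial markers, 8 never reached 1 TPM, with Epcam, Krt19, Krt5 and Esrp1 at 0. Of 9 macrophage markers, 5 never reached 1 TPM and Adgre1 was at 0. Cd68 was at 18.9 and 19.3 TPM untreated and at 18.9 and 16.6 TPM treated, and Csf1r at 2.85 and 2.36 against 5.76 and 4.91 TPM. The macrophage sum was 37.8 to 38.6 TPM untreated and 93.9 to 98.9 TPM treated, with Cd14, a lipopolysaccharide co-receptor, at 14.4 and 14.5 TPM untreated and at 72.6 and 71.1 TPM treated. Its part in the results below was not tested. Log2 values of replicates correlated across genes, which are not independent replicates, at 0.991 (untreated) and 0.990 (4OHT). Rows of small RNAs took 1.03% to 1.05% of untreated and 1.30% to 1.57% of treated values. TPM keep no sequencing depth, so precision rests on the spread between libraries of the same group, pooled in the tests over all 35 NIH3T3 libraries. The labels do not say that the 2 libraries of a group were separate cultures.

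After 4OHT most transcripts lost share and a smaller set gained strongly. Of 11632 genes tested, 2321 were higher (20%) and 6821 were lower (58.6%), together 78.6%, with limma on log2(TPM + 1) and a Benjamini-Hochberg adjusted p under 0.05. The median log2 fold change of all genes was -0.29, with quartiles of -0.62 and 0.08. Because TPM sum to a constant, each library was also centred on its median, which left 4032 higher (34.7%) and 4309 lower (37%). The large changes were upward: 566 genes were higher (4.87%) and 884 lower (7.6%) by 2-fold or more, but 156 higher and 24 lower by 4-fold or more, and 46 higher and 1 lower by 8-fold or more. Genes higher by 2-fold or more took 24826 TPM untreated and 87173 TPM after 4OHT. Counts of list members below stand beside the shares of all genes given here. Fold changes below are differences of log2(TPM + 1), which understate the change of genes with low values, and a lone number after a gene is that value. In bulk RNA, fewer cells with a transcript and less of it per cell cannot be told apart.

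**Figure D1:**
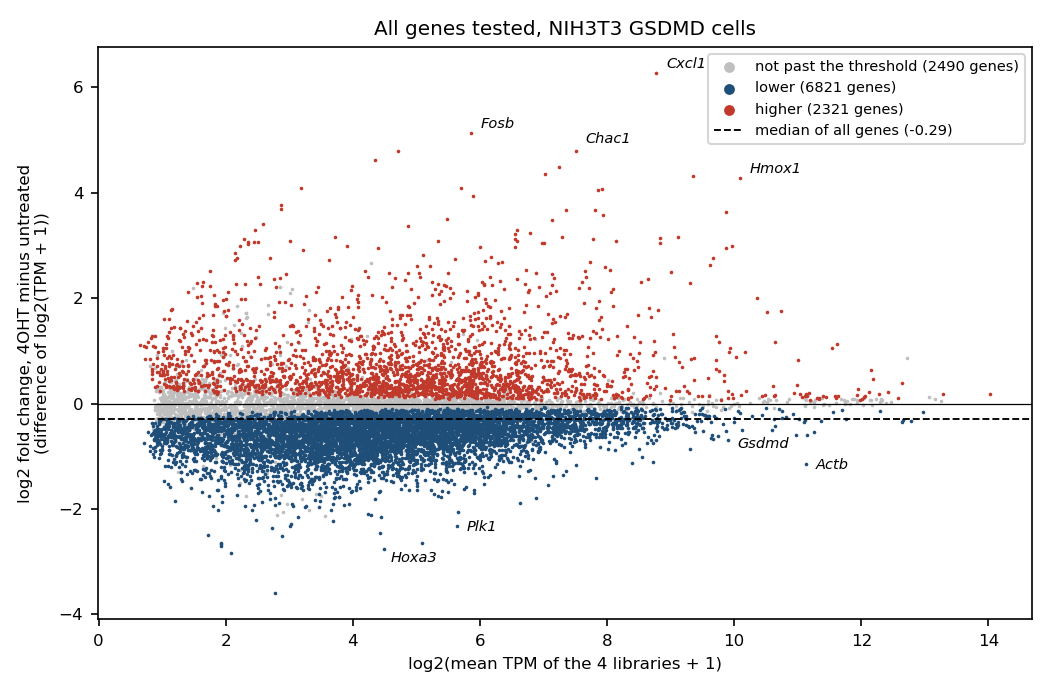
Each point is 1 of the 11632 genes tested, placed by its mean level over the 4 libraries (x axis, log2 of mean TPM plus 1) and its log2 fold change (y axis), and coloured by the limma call. The dashed line is the median of all genes, -0.29, and the points reach about as far as Cxcl1 (6.27) above it but rarely as far as Hoxa3 (-2.75) below it.

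Among genes whose treated libraries both lay above both untreated ones (23.6% of those tested lay so, and 63.4% the other way) and that reached 5 TPM, the 20 largest rises held 3 small RNAs and 17 other genes. Among them, in falling order of size, were Cxcl1, Fosb, Chac1, Plet1, Cxcl10, Lif, Dusp4, Hmox1, Csrnp1, Plat, Plk3, Pim1, Inhba, Ereg, Ifrd1 and Dusp5. They span secreted signals, early transcription factors, brakes on kinase signalling and stress enzymes. Every gene named below with its library values had groups that did not overlap. The 15 largest falls held 8 small RNA or unnamed rows, and the other 7 were Rpl26, Hoxa3, Fzd2, Plk1, Hoxa6, Hoxa2 and the pseudogene Zfp862-ps. Rpl26, a ribosomal protein gene with many near-identical copies, was at 15.3 and 7.95 TPM untreated and listed at 0 in both treated libraries, so no fold is given.

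**Figure D2:**
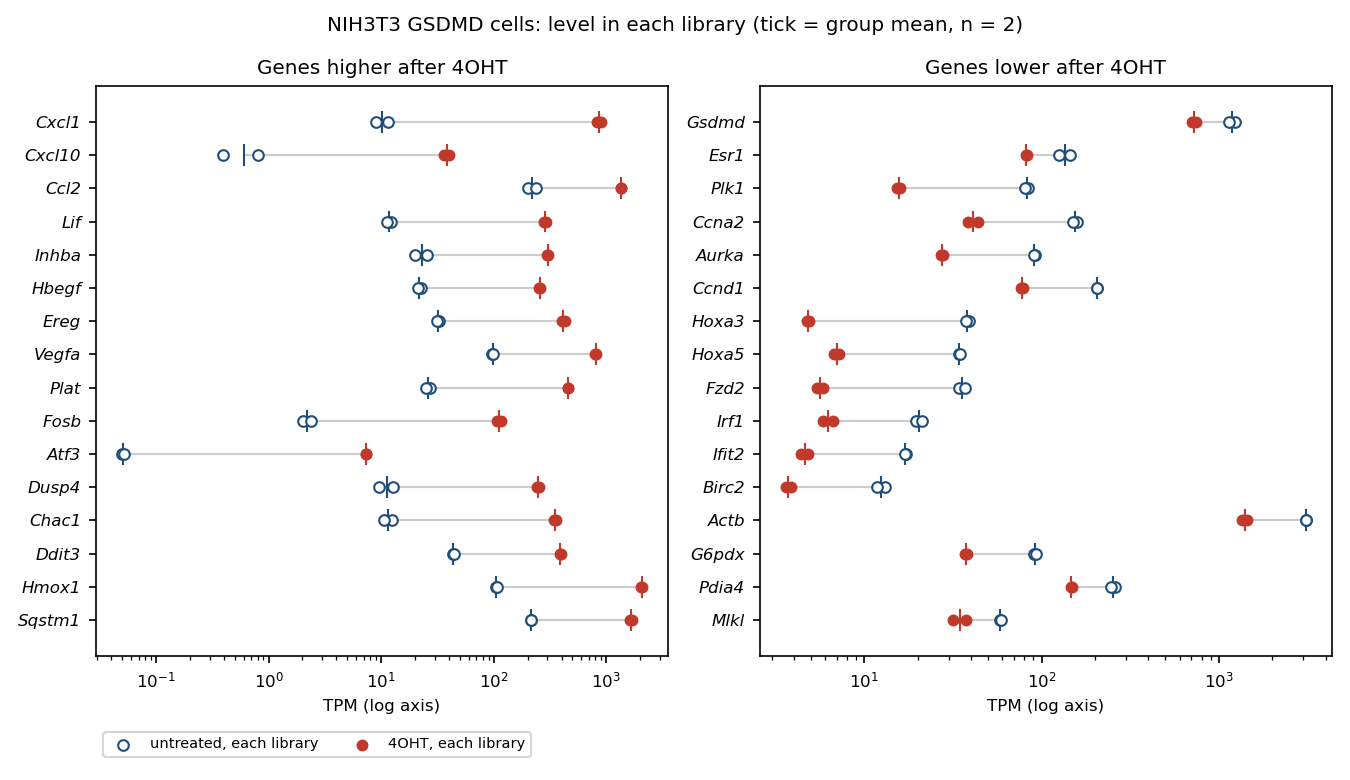
TPM of 16 genes that rose (left) and 16 that fell (right) in each of the 4 libraries, on log axes, with open circles for untreated and filled circles for 4OHT libraries and ticks at the group means (n = 2). Replicates mostly lie close to each other, as for Plat at 27.0 and 25.3 TPM untreated and 456 and 457 TPM treated, and the groups of each gene lie apart.

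Chemokines that draw neutrophils and monocytes rose. Cxcl1, a neutrophil chemokine, went from 8.95 and 11.6 TPM to 894 and 835 TPM, a log2 fold change of 6.27 (SE 0.10, limma adjusted p 4.08e-22). Its neighbour Cxcl2 was at 0.0999 and 0 TPM untreated and at 4.07 and 4.29 TPM treated, and Cxcl5 went from 9.46 and 8.78 to 24.1 and 21.3 TPM. Of the 14 Cxc chemokines listed, 12 were in the table and 5 were tested, of which 4 rose and the other missed the threshold (median 2.30, against -0.29 for all genes). Cxcl10, which draws T cells, was at 0.392 and 0.813 TPM untreated and at 36.4 and 39.8 TPM treated (4.62). The Cc chemokines were divided. Ccl2, a monocyte chemokine, was at 200.5 and 235 TPM untreated and at 1363 and 1345 TPM treated, and Ccl7 at 42.4 and 40.03 against 125 and 105 TPM. Ccl17 (1.64) and Ccl5 (1.18) also rose from low levels, while the other 4 of 8 tested did not pass. Ccl5 no longer passed without the second 4OHT library (limma adjusted p 0.0652).

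The promoters of Cxcl1, Cxcl2 and Cxcl10 are shown because all hold the same NF-kB motif, in capitals. The windows are the 250 bases before the RefSeq start, read 5′ to 3′ on the gene's strand from the RefSeq promoter table of build GRCm38.p6, at chr5:90890995-90891244 (plus strand), chr5:90903649-90903898 (plus strand) and chr5:92348890-92349139 (minus strand).
Cxcl1: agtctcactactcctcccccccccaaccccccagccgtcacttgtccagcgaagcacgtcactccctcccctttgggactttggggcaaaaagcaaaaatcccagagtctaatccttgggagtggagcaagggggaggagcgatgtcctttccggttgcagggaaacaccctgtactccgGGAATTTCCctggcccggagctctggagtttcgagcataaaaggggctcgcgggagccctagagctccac
Cxcl2: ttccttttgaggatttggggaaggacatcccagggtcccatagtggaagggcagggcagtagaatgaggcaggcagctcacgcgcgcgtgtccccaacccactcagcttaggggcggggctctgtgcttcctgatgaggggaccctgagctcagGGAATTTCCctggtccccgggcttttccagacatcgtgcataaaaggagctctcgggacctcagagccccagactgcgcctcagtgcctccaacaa
Cxcl10: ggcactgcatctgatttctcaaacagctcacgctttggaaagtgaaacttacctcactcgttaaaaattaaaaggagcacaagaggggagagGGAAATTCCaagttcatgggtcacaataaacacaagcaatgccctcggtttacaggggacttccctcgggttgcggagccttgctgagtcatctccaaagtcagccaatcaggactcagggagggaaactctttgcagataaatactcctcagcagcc
The motif GGAATTTCC, searched on both strands, ends 61 bases before the start in Cxcl1, 87 bases before it in Cxcl2 and, on the reverse strand, 149 bases before it in Cxcl10. Its letters are in 0.344% of the 27025 genes of the promoter table. Of the genes tested, 8746 could be matched to a promoter by symbol, and 35 of them held it (0.40%). Of the 99 matched genes higher by 4-fold or more, 4 held it (4.04%), these 3 among them, and of 672 matched genes lower by 2-fold or more, 1 did. The shorter AP-1 motif TGANTCA was in 20 of those 99 promoters (20.2%), in 5.36% of all matched tested genes and in 30 of 672 (4.46%) of genes lower by 2-fold or more. The motifs were chosen with results of these data known, and the NF-kB motif was shortened after a longer form, held by fewer of these promoters, had been tried. Such a match is a description of letters, not a binding site, and none of the 5 motifs searched contains another.

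Cytokines of the interleukin-6 family rose together with receptor chains that hear them. This family signals through the shared receptor chain gp130 to STAT3. Lif, a cytokine of inflammation and stem cell maintenance, went from 12.3 and 11.3 TPM to 282 and 294 TPM (4.50). Il6 went from 2.81 and 1.94 to 27.9 and 23.5 TPM, and Il11, linked to fibroblast activation, from 12.7 and 12.9 to 75.7 and 75.5 TPM. Clcf1 was at 81.7 and 83.0 TPM untreated and at 307 and 319 TPM treated. Altogether 5 of the 7 members tested rose and 2 fell, with a median of 1.91. One of the falls was Ctf1 (-0.56), which did not pass after median centring (limma adjusted p 0.137). Of 5 receptor genes, Il6ra (0.91), Lifr (0.67) and Osmr (0.27) rose and the other two missed the threshold (median 0.27).

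Other signals to white blood cells were mixed. Both colony stimulating factors tested rose, and of 5 other cytokines tested 2 rose, 2 fell and 1 did not pass, with a median of 0.15, and 3 rose and 1 fell after median centring. Csf3, which encodes the granulocyte growth factor G-CSF, was at 0 and 0.0787 TPM untreated and at 9.68 and 10.3 TPM after 4OHT. Csf1, the macrophage growth factor, went from 129 and 126 TPM to 315 and 329 TPM (1.33, SE 0.03, limma adjusted p 3.83e-19). Il33, an alarmin stored in the nucleus and freed by cell lysis, went from 13.2 and 14.2 to 62.7 and 57.8 TPM. Il23a, the p19 subunit of interleukin 23, was at 0.0761 and 0.237 TPM untreated and at 6.85 and 6.46 TPM treated. Il15 fell (-0.72), though it did not pass after median centring (limma adjusted p 0.0679) or without the second 4OHT library (limma adjusted p 0.0626). Ptgs2, the inducible cyclooxygenase that makes prostaglandin precursors, was at 230 and 217 TPM untreated and at 1831 and 1709 TPM treated.

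Growth factor genes rose too. All 4 tested genes of a list of EGF family ligands, with Nrg1 among them, rose, with a median of 3.05. Of these, 3 rose by 2-fold or more. Ereg (epiregulin) was at 32.4 and 31.0 TPM untreated and at 429 and 403 TPM treated, and Hbegf at 22.7 and 21.1 against 253 and 258 TPM. Nrg1, a ligand of the ErbB3 and ErbB4 receptors, went from 8.20 and 7.98 to 55.01 and 53.9 TPM, and Btc rose at a low level (0.91). Vegfa, the main angiogenic factor, went from 96.3 and 98.9 to 800 and 817 TPM. Of the 11 VEGF, FGF and PDGF ligands tested 7 rose, 1 fell and 3 did not pass, with a median of 0.31. Angptl4, a secreted inhibitor of lipoprotein lipase kept in that list, went from 51.9 and 51.7 to 185 and 191 TPM. Inhba, the activin A subunit, was at 25.5 and 20.2 TPM untreated and at 303 and 299 TPM treated (3.67), whereas Tgfb3 fell from 61.8 and 59.4 to 36.8 and 35.0 TPM.

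Several genes for proteases and a protease inhibitor rose, chosen here after their values were seen. Plat, tissue plasminogen activator, went from 27.0 and 25.3 TPM to 456 and 457 TPM (4.08, SE 0.05, limma adjusted p 8.89e-24). The collagenase gene Mmp13 went from 1.03 and 0.961 to 8.41 and 8.85 TPM, and Mmp10 from 0.784 and 0.319 to 6.97 and 5.87 TPM. Timp1, an inhibitor of such metalloproteinases, went from 337 and 344 to 725 and 718 TPM. Of 32 matrix genes tested, a list that holds the Mmp and Timp genes as well, 16 rose, 9 fell and 7 did not pass, with a median of 0.10, and 24 rose and 2 fell after median centring. Plet1, a membrane glycoprotein of early placenta and skin, was at 1.18 and 0.495 TPM untreated and at 48.9 and 49.6 TPM treated (4.80).

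Transcription factors of the immediate early class rose almost as a body. These genes are switched on within minutes of a stimulus, without new protein synthesis, and their products pair up to drive later genes. All 12 AP-1 and small Maf factors tested rose, with a median of 2.38. Fosb went from 2.02 and 2.40 to 107 and 117 TPM (5.14), Maff from 17.9 and 15.7 to 168 and 178 TPM, and Atf3 from 0.0496 and 0.0515 to 7.29 and 7.39 TPM. Fos, usually the first of the family to respond, was at 0.559 and 0.773 TPM untreated and at 9.74 and 10.8 TPM treated. Jun, its partner, was at 119 and 117 TPM untreated and at 178 and 188 TPM treated (0.63), beside changes of 2.45 for Junb, 2.31 for Jund and 1.67 for Fosl1.

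The same held for other early factors. All 5 Egr and Nab genes tested rose (median 2.24), among them Egr1 at 31.2 and 29.6 against 265 and 297 TPM, Egr2 at 2.17 and 2.25 against 19.0 and 21.7 TPM, and Egr3 at 4.85 and 4.24 against 24.4 and 25.8 TPM. The orphan receptors Nr4a1 (2.40), Nr4a2 (1.42) and Nr4a3 (1.88) all rose. Of 11 Kruppel-like factors tested 9 rose and the other two missed the threshold (median 1.75), led by Klf5 (18.6 and 19.9 against 167 and 173 TPM), Klf9 (24.6 and 24.3 against 119 and 120 TPM) and Klf4 (43.4 and 41.9 against 201 and 200 TPM). Csrnp1 went from 4.42 and 5.13 to 94.9 and 99.3 TPM. Ier3, an early response gene that limits apoptosis, went from 93.0 and 91.8 to 825 and 820 TPM and Ier5 from 31.9 and 28.3 to 154 and 165 TPM. Ier5l fell (-0.54) but did not pass after median centring (limma adjusted p 0.0829).

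Genes that restrain kinase signalling rose with those that it switches on. The MAP kinase phosphatases remove the activating phosphates from ERK, JNK and p38, and all 9 tested rose, with a median of 1.64. Dusp4 went from 12.9 and 9.53 TPM to 242 and 252 TPM (4.36), Dusp5 from 37.2 and 36.3 to 425 and 472 TPM and Dusp10 from 34.1 and 35.2 to 173 and 170 TPM. Dusp6, which acts on ERK, rose by less (1.64). Of 7 Sprouty, Spred and Errfi1 genes, 6 rose and 1 fell. Spry4 was at 3.88 and 3.73 TPM untreated and at 35.6 and 36.9 TPM treated, Spry2 at 61.0 and 56.4 against 336 and 346 TPM, and Errfi1, an inhibitor of the EGF receptor, at 71.7 and 68.8 against 428 and 423 TPM. Factors that destroy messenger RNA rose too, 8 of 9 with 1 not passing. Among them were Btg2, an antiproliferative partner of the deadenylase complex, at 4.16 and 4.22 against 52.9 and 51.8 TPM, and Zfp36, which binds AU-rich cytokine messages, at 20.3 and 19.1 against 84.1 and 95.5 TPM.

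Both arms of NF-kB changed. All 5 subunit genes rose, with a median of 1.47: Nfkb1 (1.70), Relb (1.63), Rel (1.47), Nfkb2 (1.32) and Rela (1.14, from 53.9 and 54.5 to 116 and 126 TPM). Of 12 genes that NF-kB induces to restrain itself, 7 rose, 3 fell and 2 did not pass, with a median of 0.53. Nfkbia, the inhibitor that holds NF-kB in the cytoplasm, went from 37.7 and 36.9 to 108 and 107 TPM. Tnfaip3 (A20) went from 1.88 and 2.37 to 9.60 and 9.19 TPM, and Traf1 from 0.622 and 0.387 to 4.23 and 4.96 TPM. Birc2 (cIAP1), a ubiquitin ligase that keeps the noncanonical arm in check, fell from 13.04 and 11.8 to 3.86 and 3.60 TPM (-1.51, SE 0.08, limma adjusted p 4.23e-13). Downstream of cytokine receptors, 8 of 11 SOCS and Pim genes rose, 1 fell and 2 did not pass, with the kinase gene Pim1 at 6.81 and 5.71 against 107 and 113 TPM and Cish at 1.07 and 0.917 against 6.45 and 7.36 TPM.

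Calcium-responsive genes followed. Of 16 genes listed as responsive to calcium, NFAT or CREB, 13 rose, 2 fell and 1 did not pass, with a median of 1.24. The list overlaps the early factors. Rcan1, an inhibitor of the calcium-dependent phosphatase calcineurin, was at 17.2 and 17.5 TPM untreated and at 167 and 170 TPM treated (3.21). The CRE motif TGACGTCA, to which CREB binds, was in 9 of the 99 promoters of genes higher by 4-fold or more (9.09%) and in 3.19% of matched tested genes. In the calcium list itself 1 of 12 matched promoters held it (8.33%), that of Rcan1. Btg2, which is not in the calcium list, is shown as an example, with the motif in capitals and 158 bases between it and the start (GRCm38.p6, chr1:134079156-134079405, minus strand, read 5′ to 3′).
Btg2: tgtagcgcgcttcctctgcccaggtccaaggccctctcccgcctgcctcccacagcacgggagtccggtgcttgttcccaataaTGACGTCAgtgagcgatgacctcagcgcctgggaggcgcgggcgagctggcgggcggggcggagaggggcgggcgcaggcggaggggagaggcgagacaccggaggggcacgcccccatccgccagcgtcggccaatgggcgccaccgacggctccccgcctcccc
Of 17 calcium pumps, channels and exchangers, 3 were higher, 9 lower and 5 did not pass, near the 20% higher and 58.6% lower of all genes. After median centring 10 were higher and 4 lower, beside 34.7% and 37% of all genes. Atp2b1, the plasma membrane calcium pump, went from 91.5 and 83.7 to 186 and 182 TPM. Piezo1, a stretch-activated channel, rose (0.94), and Orai3, a store-operated channel, fell from 13.8 and 13.1 to 6.69 and 6.64 TPM.

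Genes of the stress response that passes through translation factor eIF2 and the transcription factor ATF4 mostly rose. Genes of the folding machinery of the endoplasmic reticulum (ER) lay near the median of all genes (-0.29). Of 21 integrated stress response genes tested 17 rose, 2 fell and 2 did not pass, with a median of 0.91. Chac1, which degrades glutathione, went from 12.6 and 10.7 TPM to 341 and 358 TPM (4.80, SE 0.09, limma adjusted p 3.65e-21). Ddit3 (CHOP) went from 43.3 and 44.5 to 385 and 398 TPM, Ppp1r15a (GADD34), which reverses the block on translation, from 21.2 and 19.3 to 160 and 170 TPM, and Trib3 from 13.6 and 12.2 to 63.7 and 69.1 TPM. Atf4 itself went from 651 and 655 to 1287 and 1281 TPM.

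Of 21 ER chaperone and unfolded protein genes, 6 rose, 14 fell and 1 did not pass, with a median of -0.26, and 7 rose and 8 fell after median centring. For comparison, 58.6% of all genes tested fell, and their median was -0.29. The 6 that rose included Dnajb9 (2.24), Herpud1 (2.11), Xbp1 (1.19) and Hspa5 (BiP, 0.98, from 776 and 767 to 1540 and 1500 TPM). Other members of the list fell. Pdia4, a disulfide isomerase, fell from 260 and 245 to 147 and 148 TPM, Sdf2l1 from 33.2 and 27.7 to 13.4 and 19.2 TPM, and Hsp90b1, the ER form of HSP90, from 1886 and 1784 to 1402 and 1345 TPM. Of 20 cytosolic tRNA synthetases 7 rose and 13 fell, with a median of -0.21, and 8 rose and 6 fell after median centring. These counts stand beside the same 58.6% of all genes that fell.

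The promoters of Chac1 and Atf3 are shown because both hold the composite motif TGATGNAA, at which ATF4 and C/EBP factors meet, on the reverse strand (capitals). They are the 250 bases before each start in GRCm38.p6, at chr2:119350992-119351241 (plus strand) and chr1:191183334-191183583 (minus strand), read 5′ to 3′.
Chac1: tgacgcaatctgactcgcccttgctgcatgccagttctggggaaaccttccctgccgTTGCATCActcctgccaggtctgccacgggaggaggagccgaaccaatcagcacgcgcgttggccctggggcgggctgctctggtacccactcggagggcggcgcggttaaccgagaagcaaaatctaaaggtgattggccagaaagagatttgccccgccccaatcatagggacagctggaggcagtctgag
Atf3: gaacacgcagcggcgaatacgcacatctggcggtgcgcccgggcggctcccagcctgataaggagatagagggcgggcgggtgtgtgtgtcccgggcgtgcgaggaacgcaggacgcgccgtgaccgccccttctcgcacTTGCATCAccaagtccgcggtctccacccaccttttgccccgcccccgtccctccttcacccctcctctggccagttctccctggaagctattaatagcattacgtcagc
The motif lies 185 bases before the Chac1 start and 102 bases before the Atf3 start. It was in 9 of 99 matched promoters of genes higher by 4-fold or more (9.09%), in 2.31% of matched tested genes and in 11 of 672 (1.64%) of genes lower by 2-fold or more. Among the 19 integrated stress response genes with a matched promoter, 4 held it.

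Oxidant, metal and heat stress genes gave a mixed picture. Hmox1, which breaks down haem, rose from 104 and 107 TPM to 2055 and 2082 TPM (4.28, SE 0.05, limma adjusted p 1.38e-24), and Srxn1, which repairs peroxiredoxins, from 155 and 152 to 872 and 868 TPM. Other genes of the same NRF2 list fell: G6pdx, the entry enzyme of the pentose phosphate path, from 91.2 and 92.6 to 37.2 and 37.9 TPM, Gsr (glutathione reductase) from 75.1 and 74.1 to 32.9 and 30.1 TPM, and Nqo1, a quinone reductase, from 29.0 and 27.7 to 16.3 and 14.4 TPM. In all, 12 of 20 rose and 8 fell, with a median of 0.24, and 14 rose and 3 fell after median centring. The 3 named falls were lower in both forms. The metallothioneins Mt1 (893 and 1079 against 2148 and 2280 TPM) and Mt2 (193 and 209 against 713 and 669 TPM) rose with the zinc exporter Slc30a1 (1.44).

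Cytosolic heat shock genes showed no common direction, with 9 higher, 9 lower and 4 not passing of 22, and 13 higher and 3 lower after median centring. Hspb8, a small chaperone that works with autophagy, went from 170 and 162 to 456 and 475 TPM, Dnajb1 from 28.7 and 27.6 to 67.8 and 72.7 TPM, and Hspa8 from 3932 and 3862 to 5366 and 5362 TPM. Hspa1b, the inducible HSP70, fell from 11.6 and 11.4 to 6.08 and 7.56 TPM, although reads of this gene and its near-identical copy Hspa1a may have been split.

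Most genes of autophagy and the lysosome rose. Of 28 tested, 20 rose, 4 fell and 4 did not pass, with a median of 0.48 against -0.29 for all genes, and 22 rose and 2 fell after median centring. Sqstm1 (p62), the receptor that carries ubiquitin-tagged cargo into autophagosomes, went from 213 and 213 TPM to 1638 and 1678 TPM (2.95, SE 0.03, limma adjusted p 3.31e-26). Fnip1, a partner of folliculin in nutrient sensing, went from 28.1 and 27.8 to 99.7 and 90.8 TPM, and Gabarapl1, which coats autophagosomes, from 62.8 and 61.3 to 154 and 155 TPM. Map1lc3b (LC3B, 83.8 and 89.1 against 195 and 195 TPM), the proton pump subunit Atp6v1h (1.27), the lysosomal protease Ctsb (0.99) and the lysosomal enzyme Gla (17.6 and 17.05 against 54.5 and 54.1 TPM) rose too. Atg5, which is needed to build the autophagosome, fell from 23.6 and 23.8 to 14.0 and 13.7 TPM. The CLEAR motif CACGTGAC, to which TFEB and related factors bind, was in 5 of 23 matched promoters of this list (Atg7, Ctsd, Gla, Lamp1 and Mcoln1) and in 4.12% of matched tested genes. Gla is shown as an example, with the motif in capitals on the reverse strand, 188 bases before the start (GRCm38.p6, chrX:134601006-134601255, minus strand, read 5′ to 3′).
Gla: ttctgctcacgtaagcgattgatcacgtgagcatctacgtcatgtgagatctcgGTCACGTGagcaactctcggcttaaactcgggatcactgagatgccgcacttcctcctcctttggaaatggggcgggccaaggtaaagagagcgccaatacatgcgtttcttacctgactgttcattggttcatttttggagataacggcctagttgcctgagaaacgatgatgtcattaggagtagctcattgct

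**Figure D3:**
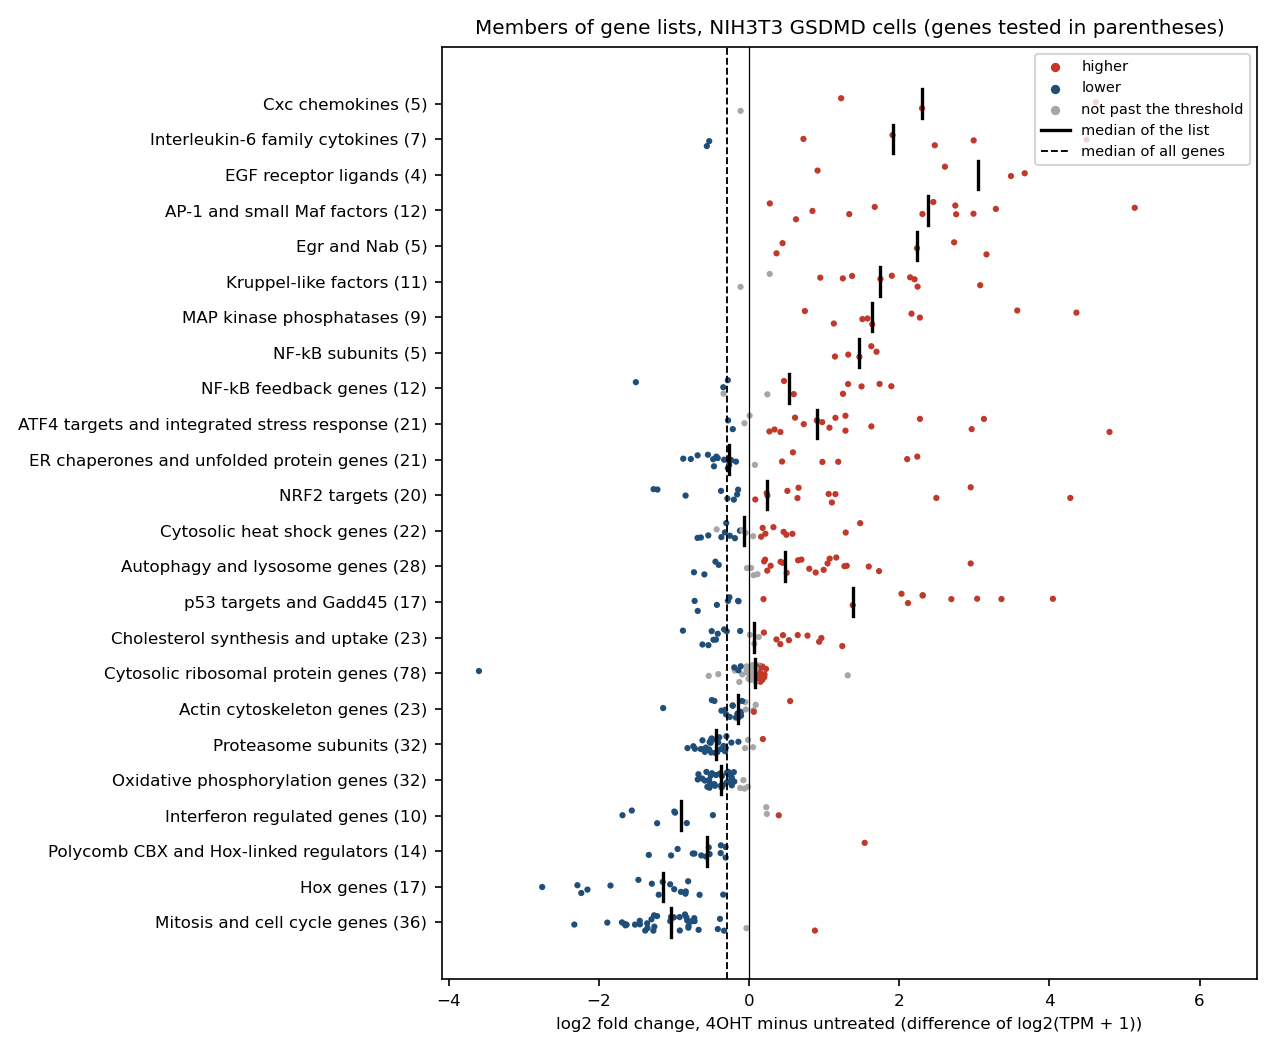
Log2 fold change (x axis) of each tested member of 24 gene lists (rows, number tested in parentheses), coloured by the limma call, with a black bar at the median of the list and a dashed line at the median of all genes (-0.29). Chemokine, EGF ligand, AP-1 and phosphatase lists sit to the right of the dashed line, and the Hox and cell cycle lists (medians -1.15 and -1.04) to its left.

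Several genes that stop the cell cycle rose and most genes that run it fell. Of 17 p53 targets and Gadd45 genes, 10 rose and 7 fell, with a median of 1.38, and 12 rose and 3 fell after median centring. Plk3, a stress-activated kinase, went from 26.4 and 24.5 to 417 and 456 TPM (4.05), Gadd45a from 27.8 and 25.05 to 225 and 223 TPM, and Gadd45g from 19.0 and 22.9 to 136 and 145 TPM. Cdkn1a (p21), which inhibits cyclin-dependent kinases, went from 95.6 and 102 to 417 and 449 TPM and Mdm2, the ligase that degrades p53, from 65.2 and 63.6 to 328 and 320 TPM. Phlda3, a p53 target that restrains AKT, fell (74.1 and 74.1 against 43.6 and 45.3 TPM).

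Of 36 cell cycle and mitosis genes, 34 fell, 1 rose and 1 missed the threshold (median -1.04). Of these, 20 fell by 2-fold or more, and 33 of the 36 were still lower after median centring. The shares of all genes were 58.6% lower, 7.6% lower by 2-fold or more and 37% lower after median centring. Plk1, the kinase that drives entry into mitosis, fell from 83.6 and 80.9 TPM to 15.9 and 15.3 TPM (-2.33, SE 0.04, limma adjusted p 2.28e-22). Cyclin A2 (Ccna2) fell from 159 and 150 to 43.7 and 38.4 TPM, Aurka from 91.6 and 90.2 to 27.2 and 27.7 TPM and the mitotic kinesin Kif20a from 79.1 and 82.2 to 24.3 and 26.6 TPM. Cyclins of earlier phases fell as well: Ccnd1, which answers growth factors, from 205 and 204 to 76.9 and 78.9 TPM, Ccne1 from 44.4 and 42.7 to 12.98 and 13.5 TPM and Ccne2 from 23.5 and 22.8 to 6.96 and 6.36 TPM. The single rise was Cdt1, which licenses replication origins (104 and 106 against 186 and 202 TPM).

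All 17 Hox genes tested fell, with a median of -1.15, and 10 of them by 2-fold or more. Of all genes tested 58.6% fell, and 7.6% by 2-fold or more. Hox genes encode the transcription factors that record position along the body axis, and fibroblasts keep that record in culture. Of 35 in the table, 17 passed the filter on low values. Hoxa3 (chromosome 6, 52169062 to 52213336, minus strand) fell from 38.9 and 37.4 TPM to 4.87 and 4.73 TPM (-2.75, SE 0.10, limma adjusted p 9.12e-16). Its neighbours in the same cluster, Hoxa2 (19.99 and 20.5 against 3.96 and 3.11 TPM), Hoxa5 (34.3 and 34.5 against 7.16 and 6.78 TPM) and Hoxa6 (12.4 and 12.7 against 1.90 and 1.66 TPM), fell by 2.23, 2.15 and 2.28. Hoxc6 changed least (-0.34, limma adjusted p 0.00725) and was the one not called after median centring, where 16 remained lower, and its value was 0.020 after quantile normalization. It also did not pass without the second 4OHT library (limma adjusted p 0.0967) or without the first untreated one (limma adjusted p 0.229). Transcripts of a Hox cluster overlap, so reads of neighbours may have been assigned to each other.

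Polycomb complexes hold Hox clusters silent. In a list of Polycomb CBX genes and Hox-linked regulators 13 of 14 fell, beside 58.6% of all genes. The median was -0.56, and 9 of 14 were lower after median centring. Cbx6 fell from 59.2 and 57.5 to 21.7 and 23.4 TPM and Cbx8 from 13.4 and 11.9 to 5.31 and 5.97 TPM. The 1 that rose was Kdm6b, the demethylase that removes the Polycomb mark (22.2 and 22.1 against 63.0 and 70.1 TPM). Among single genes chosen for the size of their fall or from the BMP response list, Fzd2, a Wnt receptor, fell from 34.3 and 36.9 to 5.41 and 5.86 TPM (-2.46), and Atoh8, a factor that responds to BMP, from 10.1 and 10.3 to 1.71 and 2.40 TPM. Of the 7 BMP response genes tested, 2 rose and 4 fell, and 3 rose and 3 fell after median centring. Of 291 numbered zinc finger genes tested, 191 fell, 48 rose and 52 missed the threshold (median -0.45), beside the 58.6% of all genes that fell, and 136 were lower and 84 higher after median centring.

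Interferon-regulated genes were low and mostly fell while the chemokines rose. Of 24 listed genes 10 were tested, of which 7 fell, 1 rose and 2 missed the threshold (median -0.91), and 6 fell and 3 rose after median centring. For comparison, 58.6% of all genes tested fell (median -0.29), and 37% were lower after median centring. Irf1, a factor that opens the interferon programme, fell from 19.7 and 21.1 TPM to 5.86 and 6.65 TPM (-1.56, SE 0.11, limma adjusted p 2.25e-11). Ifit2 fell from 17.1 and 16.9 to 4.41 and 4.78 TPM and Stat2, which carries the interferon signal, from 8.91 and 9.25 to 3.16 and 3.48 TPM. Isg20, a ribonuclease, was the one that rose (0.40). Cxcl10, often counted among interferon targets but listed here with the chemokines, rose as given above.

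The actin genes parted. Actb (chromosome 5, 142903115 to 142906754) fell from 3101 and 3091 TPM to 1356 and 1448 TPM (-1.14, SE 0.04, limma adjusted p 1.38e-15). Its close relative Actg1 (chromosome 11, 120345690 to 120348542) was at 3207 and 3132 TPM untreated and at 2774 and 2924 TPM treated, a change of -0.15 as deposited and 0.12 after median centring, called in opposite directions. Of 23 actin cytoskeleton genes tested, 17 fell, 2 rose and 4 did not pass (median -0.15), but 14 rose and 4 fell after median centring, so the direction of most depends on the scale. The targets of SRF and YAP, factors that read actin and cell spreading, were divided as well, with 7 higher, 8 lower and 1 not passing of 16, and 9 higher and 4 lower after median centring. Cyr61 (173 and 184 against 630 and 632 TPM) and Ankrd1 (57.4 and 57.7 against 117 and 120 TPM) rose, while Amotl2 (111 and 106 against 52.3 and 57.0 TPM), Ajuba (17.5 and 16.6 against 6.997 and 7.45 TPM) and Ctgf (259 and 264 against 200 and 206 TPM) fell.

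Housekeeping groups lay on either side of the general shift. In that shift 58.6% of all genes fell (median -0.29), or 37% after median centring. Of 32 nuclear-encoded oxidative phosphorylation genes 28 fell and 4 did not pass, with a median of -0.37, and 15 fell and 4 rose after median centring. Ndufs3 (96.9 and 101 against 60.0 and 62.6 TPM) and Sdhb (153 and 153 against 98.5 and 92.5 TPM) were examples. Of 32 proteasome subunits 28 fell, 1 rose and 3 missed the threshold (median -0.44), and 21 fell after median centring, with Psmd7 at 308 and 297 against 170 and 172 TPM. Cytosolic ribosomal proteins lay above the shift: of 78 tested 27 rose, 4 fell and 47 did not pass, with a median of 0.07, and 71 rose after median centring.

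Some metabolic and nuclear groups held strong single members. Ndrg1, a stress gene raised by hypoxia, went from 110 and 111 to 972 and 1022 TPM (3.16), and the glycolytic genes Hk2 (28.03 and 25.2 against 84.1 and 88.7 TPM) and Slc2a1, the glucose transporter (229 and 221 against 490 and 528 TPM), rose, but Egln3 (-1.18), Bnip3 (-0.91) and Ldha (-0.50) of the same list fell. That hypoxia and glycolysis list had 7 higher, 11 lower and 4 not passing of 22, and 10 higher and 7 lower after median centring. Cholesterol genes were even as deposited, with 10 higher, 10 lower and 3 not passing of 23, but 14 were higher and 6 lower after median centring. Among them were Insig1, which restrains the sterol sensor, at 113 and 110 against 267 and 262 TPM, and Mvk (-0.88), which fell. Of 14 clock genes 8 rose, 3 fell and 3 did not pass. Nr1d1 (REV-ERB alpha), a repressor of the clock, was at 25.8 and 28.2 TPM untreated and at 223 and 236 TPM treated, Bhlhe40 at 51.8 and 54.6 against 234 and 241 TPM and Per1 at 13.6 and 12.7 against 41.7 and 47.0 TPM. All 6 nuclear long noncoding RNAs tested rose, led by Neat1, the scaffold of paraspeckles (688 and 672 against 2265 and 2244 TPM), with Malat1 at 0.68. Of 36 histone genes 10 rose and 7 fell, and 15 rose and 5 fell after median centring, with the variant gene H2afx lower (79.6 and 75.6 against 29.7 and 36.2 TPM) and Hist1h2bc (6.22 and 9.04 against 59.9 and 58.9 TPM) and Hist1h1c (2.05) higher. Histone genes are near-identical to each other and partly lack poly(A) tails, so their values are uncertain.

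Genes for membrane repair and for lytic death were divided after median centring, and as deposited their falls stand beside 58.6% of all genes that fell. Of 25 ESCRT, annexin and repair genes 19 fell, 3 rose and 3 did not pass (median -0.24), and after median centring 8 rose and 8 fell. Chmp6, which starts the ESCRT-III filament, fell from 43.8 and 44.8 to 19.3 and 22.7 TPM and the calcium-activated protease gene Capn1 from 30.5 and 29.7 to 15.2 and 16.7 TPM, while Chmp4b, the main filament subunit, rose slightly (135 and 128 against 172 and 168 TPM). Of 11 pyroptosis and necroptosis genes tested, which include Gsdmd, 6 fell, 2 rose and 3 did not pass, and 5 fell and 4 rose after median centring. Casp8, the protease that decides between apoptosis and necroptosis, fell from 23.1 and 21.3 to 10.1 and 11.4 TPM and Mlkl, the pore protein of necroptosis, from 58.1 and 59.0 to 37.3 and 31.8 TPM. In the Bcl2 family 7 of 12 fell, 4 rose and 1 missed the threshold, with 5 higher and 6 lower once centred. Mcl1, which protects from apoptosis (88.8 and 81.0 against 209 and 193 TPM), and Bbc3 (PUMA), which promotes it (3.13 and 2.43 against 14.1 and 14.7 TPM), both rose, and Bmf, another promoter of apoptosis, fell from 2.23 and 2.30 to 0.157 and 0.0212 TPM.

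4OHT alone was measured in LLC cells without a construct. Of 11110 genes tested 91 were higher (0.819%) and 5 lower (0.045%), together 0.864%, which became 54 and 22 after median centring. The 96 calls in all became 27 when the spread was taken from those libraries alone, and 16 to 30 when 1 library was left out. Cxcl1 was -0.10 there, Hmox1 0.05, Chac1 0.10, Fosb -0.01 and Plk1 0.07. No such libraries of NIH3T3 cells were analysed here, so an effect of 4OHT on NIH3T3 cells apart from the construct was not tested.

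The same construct, dose and time gave responses in NIH3T3 and LLC cells that differed in many genes. The level of the construct differed as well. Gsdmd was at 710 to 1230 TPM in the NIH3T3 and 336 to 377 TPM in the LLC libraries with the construct. Esr1 was at 81.3 to 145 and 21.2 to 22.5 TPM. The line and the level of the construct therefore cannot be told apart. The tests of the difference between the NIH3T3 and the LLC response called 3330 of 12340 genes more positive in NIH3T3 cells (27%) and 4139 more negative (33.5%), which became 4160 and 3405 after median centring. Vegfa differed little, at 3.04 in NIH3T3 and 3.07 in LLC cells (difference -0.04, SE 0.05, limma adjusted p 0.580), as did Sqstm1 at 2.95 and 2.90 (difference 0.05, SE 0.03, limma adjusted p 0.146). Hmox1 rose by 2.16 more in NIH3T3 cells and Hbegf by 2.28 more, while Cxcl1 (difference -0.72), Chac1 (-1.53) and Trib3 (-1.66) rose by more in LLC cells. Of 21 integrated stress response genes 17 had a smaller response in NIH3T3 cells and 1 a larger one (medians 0.91 and 1.5).

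Some genes answered in NIH3T3 cells but hardly or the other way in LLC cells, and others fell in both. Plat was at 5.202 ± 0.195 TPM in untreated and 7.58 ± 0.541 TPM in 4OHT-treated LLC GSDMD cells (SD, n = 2), a difference of 3.61 between the log2 responses. Plet1, at 2.44 ± 0.216 and 2.61 ± 0.970 TPM there, differed by 4.76, and Csf1 differed by 2.40, since it fell in LLC cells (-1.06). Hox genes fell in LLC cells too, with a median of -0.65 over those that passed the filter there, against -1.15 in NIH3T3 cells. Of 17 Hox genes, 12 had a more negative response in NIH3T3 and 0 in LLC cells. Hoxa3 was low in LLC cells, at 2.79 ± 0.353 and 3.00 ± 0.431 TPM, while Hoxa2 fell there (-0.91). Cell cycle genes fell in LLC cells as well (median -0.63), and 27 of 36 fell by more in NIH3T3 cells, among them Plk1 (difference -1.08, SE 0.05, limma adjusted p 2.11e-17). Actg1 had a response of -1.74 in LLC cells, beyond that of Actb there (-1.53), and the difference from NIH3T3 cells was 1.58.

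The construct of the other pore protein, MLKL, was treated with AP20187, a dimerizer, for 1 h rather than 2.5 h, so the protein and the time cannot be told apart. Of 12054 genes 1790 were more positive after GSDMD (14.8%) and 5993 more negative (49.7%), together 64.6%, which became 3518 and 3210 after median centring. Early factors did not share a direction. Of 12 AP-1 and small Maf factors 8 had a more positive response after GSDMD and 2 a more negative one, of 11 Kruppel-like factors 8 and 2, and of 5 Egr and Nab genes 2 and 3. The most negative difference was that of the small RNA gene Snord70 (-4.37, SE 1.55), followed by Egr1. Egr1 was at 4.26 ± 0.0962 TPM in untreated and 867 ± 58.7 TPM in AP20187-treated MLKL cells (SD, n = 2), against 30.4 and 281 TPM as means of GSDMD cells (difference -4.20, SE 0.09, limma adjusted p 1.43e-18). Jun (-3.57), Ctgf (-3.19), Cyr61 (-2.83) and Rgs16 (-2.57) differed in the same way. In these genes the untreated cells differed too: Ctgf was at 25.1 TPM in untreated MLKL and 262 TPM in untreated GSDMD cells, Cyr61 at 9.89 and 179 TPM and Jun at 42.2 and 118 TPM.

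In the positive direction, Plet1 (4.48), Csf3 (3.33), Plat (3.23), Tmem74 (3.14), Atf3 (2.97) and Hmox1 (2.92) were the largest differences from MLKL apart from 2 small RNAs. Plat reached 57.5 ± 1.602 TPM in MLKL cells and Hmox1 103 ± 3.65 TPM, against treated means of 456 and 2068 TPM in GSDMD cells. Atf3 stayed at 0.0537 TPM in treated MLKL cells. All 5 NF-kB subunits rose by more after GSDMD (medians 1.47 and 0.41), and so did 15 of 21 integrated stress response genes and 19 of 28 autophagy and lysosome genes. Of 36 cell cycle genes 34 were more negative after GSDMD (medians -1.04 and -0.07), and of 17 Hox genes 15 were (medians -1.15 and -0.33). Hbegf did not differ beyond its error (0.01, SE 0.09, limma adjusted p 0.910).

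Digitonin, a detergent that opens the membrane by binding cholesterol, acted for 3 h on NIH3T3 cells without the construct. The response to GSDMD was more positive in 1355 of 11930 genes (11.4%) and more negative in 6405 (53.7%), together 65%, which became 4039 and 3223 after median centring. Ccl2 (difference 2.39) and Csf1 (1.44) rose after GSDMD, while their response to digitonin was 0.25 and -0.11, and Csf3 was at 0.176 ± 0.0584 TPM after digitonin (SD, n = 2). Plat rose after both, by 4.08 after GSDMD and by 3.21 after digitonin (difference 0.87, SE 0.07, limma adjusted p 7.84e-10). Cholesterol genes went the other way, with 20 of 23 less positive after GSDMD and 0 more so (medians 0.07 and 1.39). Of 22 heat shock genes 17 were less positive after GSDMD and 2 more so, and Fnip1 rose by 0.80 less. Cell cycle genes were more negative after GSDMD in 34 of 36, as they were against MLKL, and Hox genes in 15 of 17.

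**Figure D4:**
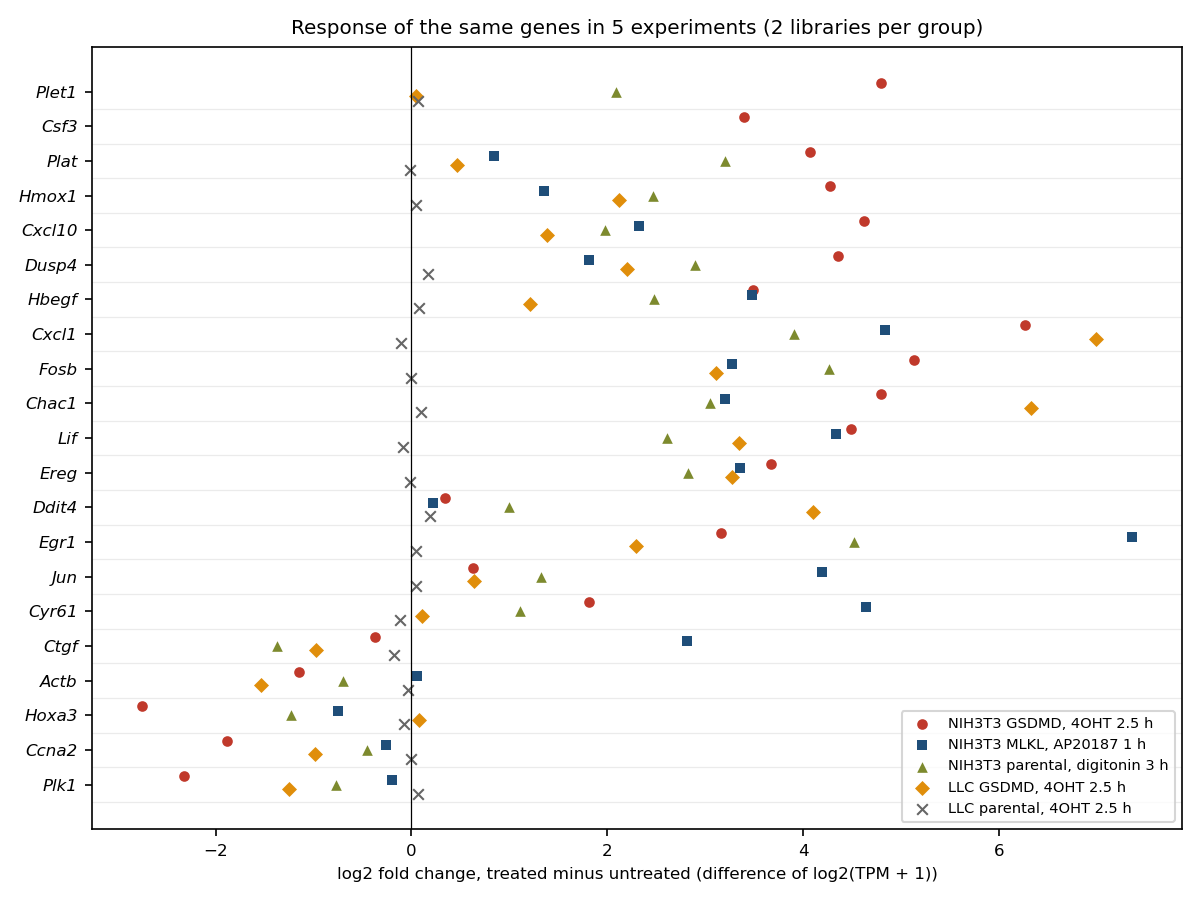
Log2 fold change (x axis) of 21 genes (rows) in 5 experiments of 2 treated and 2 untreated libraries each, marked by shape and colour, where a missing mark is a gene below the filter on low values in that experiment. The parental LLC marks stay near 0, the MLKL marks reach furthest for Egr1 (7.37), and the NIH3T3 GSDMD marks reach furthest to the left for Hoxa3 (-2.75) and Plk1 (-2.33).

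Among the 6 genes whose pattern over all 18 NIH3T3 groups was most like that of Cxcl1, by Pearson's correlation of log2 group means among 9079 genes that reached 10 TPM in a group, were Cxcl10 (0.970), Lif (0.966), Btg1 (0.935), Fosb (0.928) and Bcl6 (0.926). The groups share lines and untreated levels, and no test is attached to these values. In GSDMD cells Btg1, an antiproliferative gene related to Btg2, went from 110 and 107 to 265 and 256 TPM and Bcl6, a transcriptional repressor, from 26.9 and 27.3 to 91.7 and 91.1 TPM.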

How the data were processed

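Polyadenylated RNA of cultured cells was sequenced, and the authors deposited 1 table of TPM for all mouse libraries. Per the submitters' processing notes, transcripts were quantified with Salmon and the builds named are mm10 and hg19. No source used here gives the version, index or counting settings. The unit TPM was inferred from the deposited values, whose totals lay between 999913 and 999951 in the 4 libraries. TPM keep no depth, so no counting error can be given, and a constant total lets large rises push other genes down.

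Groups were taken from line, construct and treatment in the labels. Genes entered the test when 2 or more of the compared libraries reached 1 TPM. Values were taken as log2(TPM + 1), and limma 3.58.1 (trend, two-sided) in R 4.3.3 was fitted in 1 model over all 35 NIH3T3 libraries, 16 LLC libraries, or both for the comparison of lines, without a replicate block. Benjamini-Hochberg adjusted p-values under 0.05 over all genes tested counted as passing, and differences between responses were tested as interaction contrasts. An exact permutation test of 2 against 2 libraries cannot go below p = 0.333, so it was not used.

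The members and gene lists were chosen with earlier results of these data known. Genes named are the 20 largest rises and 15 largest falls, members of lists of up to 15 genes, the strongest members of longer lists, the 8 largest differences each way per pair of responses and the 6 genes most like Cxcl1, and the text names a selection of these, made after values were seen. Some genes that meet these rules are not reported here. Lists are described by counts and medians without a set test, and 56 were used. Lists not described in the text were TGF-beta ligands (2 of 3 higher), arrestin-related genes (1 of 5 higher, 3 lower), oestrogen receptor targets (1 of 4 higher, 2 lower) and RNA host genes (4 of 13 higher, 2 lower).

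On simulated data for 4OHT against untreated NIH3T3 GSDMD cells (11413 genes, 200 changed), the fit recovered 95.5% of genes changed 1.5-fold and 100% at 2-fold and 4-fold, with 8 false among 205 calls. The changed genes were drawn only from those at about 5 TPM or more untreated, the noise was normal, and all other genes were left unchanged. In the data 78.6% of genes passed and lower levels were tested, so these rates do not describe the comparison reported. Alternatives were a pseudocount of 0.1, median centring, quantile normalization, no filter, a filter of 5 TPM, only the libraries compared, a replicate block, removal of 464 small RNA and ribosomal RNA rows, and each library left out. Positions came from GENCODE vM21 (11172 of 11632 genes matched by symbol) and promoters from RefSeq (8746 matched). Figures used matplotlib 3.10.9 in Python 3.11.15.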

Additional observations from a re-analysis of the deposited data

Results flagged for a closer look

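The 9 genes below responded differently to 4OHT in NIH3T3 and LLC cells that carry the same construct, at unlike transcript levels. They passed the test of the difference itself (limma interaction, Benjamini-Hochberg adjusted) and were among the 8 largest differences each way, small RNAs aside. The response of NIH3T3 cells minus that of LLC cells was 4.76 for Plet1, 3.61 for Plat, 3.46 for Csf3, 3.40 for Foxs1 and 3.24 for Cxcl10 on the log2(TPM + 1) scale. It was -5.06 for Sprr1a, -3.76 for Ddit4, -3.76 for Ciart and -3.45 for Hspa1b. Foxs1, a forkhead factor, rose in NIH3T3 cells from 1.43 and 1.24 to 11.3 and 10.8 TPM and went from 12.3 ± 0.180 to 5.51 ± 0.245 TPM in LLC cells (SD, n = 2). Sprr1a, a cornified envelope gene, was at 1.10 ± 0.0648 TPM in untreated and 74.6 ± 3.16 TPM in treated LLC cells, and never reached 1 TPM in NIH3T3 GSDMD cells. Ddit4 (REDD1), which restrains mTORC1, went from 30.5 ± 1.13 to 540 ± 25.3 TPM in LLC cells, against 79.4 and 80.9 untreated and 98.8 and 105 TPM treated in NIH3T3 cells. Ciart, a clock repressor, went from 2.64 ± 0.125 to 57.8 ± 0.450 TPM in LLC cells and did not pass in NIH3T3 cells as deposited (0.25, limma adjusted p 0.145), but did after median centring (0.53, limma adjusted p 0.00525) and quantile normalization (0.60, limma adjusted p 0.00153).

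The construct's transcripts also appeared in 4 LLC libraries whose label gives no construct. The untreated libraries of the LLC digitonin experiment held Gsdmd at 333 and 337 TPM and Esr1 at 32.7 and 33.0 TPM, and the digitonin libraries held Gsdmd at 326 and 336 TPM and Esr1 at 32.0 and 31.3 TPM. LLC libraries labelled with the GSDMD construct held 336 to 377 TPM of Gsdmd and 21.2 to 22.5 TPM of Esr1, and the other 8 LLC libraries 11.8 to 22.6 and 0.673 to 1.6 TPM. The values go against the label of these 4 libraries, which enter no comparison above but do enter the estimate of spread in LLC fits.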

How the results depend on the processing

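The number of genes past the threshold in the 4OHT comparison (9142) stayed between 8041 and 9742 under every setting run, and at 8382 to 8517 when 1 library was left out. The split moved with the scale: 2321 higher and 6821 lower as deposited, 4032 and 4309 after median centring, 3468 and 5044 after quantile normalization. Counts for the difference from MLKL (7783) were 7214 to 7376 with 1 library left out, from digitonin (7760) 7216 to 7458, and from LLC GSDMD cells (7469) 6806 to 7039. After quantile normalization the 3 splits were 2906 and 3811, 3152 and 3789, and 3464 and 3727, and for LLC cells 4160 and 3405 after median centring. In parental LLC cells the 96 calls became 27 with only the libraries of the comparison and 16 to 30 with 1 left out. The replicate block gave 9146, 7799, 7819, 7491 and 83 calls in the same order, and changed no call of a named gene. Deviations of same-numbered libraries correlated at only 0.055, and 2 pairs cannot show a pairing. Of 190 named genes, 181 kept direction and call in every setting that could be run. Reversed were Hoxc6 after quantile normalization (0.020, limma adjusted p 0.876) and Actg1 after median centring (0.12, limma adjusted p 0.00173). Rpl26 did not pass without either 4OHT library (limma adjusted p 0.0674 and 0.0669), and Hoxc6 not with only the libraries of the comparison (0.0754). The causes were not tested. Depth limits cannot be given, because TPM keep none.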
